A study of Mus musculus with 4 samples.

Results

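The genes described here are 40 genes of the NRF2 pathway and of the glutathione and thioredoxin systems, with the peroxiredoxins, superoxide dismutases and catalase, iron and haem genes, and the enzymes that supply NADPH. They were chosen by name, as the non-control array probes whose gene name equals 1 of the 40, and all 40 of the 28095 gene names on the array were found. Of these, 36 were tested, because they had a probe that the scanner software marked as well above background on each array of 1 or both genotypes. The samples were DP (double-positive) thymocytes, immature T cells of the thymus with CD4 as well as CD8 on their surface, which were sorted from mice of 6 to 12 weeks that had received no treatment. In the USP8ff_CD4Cre group, mice with loxP-flanked alleles of Usp8, which encodes a ubiquitin-specific protease, also carried Cre under Cd4 regulatory sequences. In the USP8ff group, sex-matched littermates had the loxP-flanked alleles and no Cre. Each genotype had 2 arrays, and each array measured a pool of cells from 2 mice, 8 mice in all, so the p-values measure the spread between pools. Since no mice with Cre but normal Usp8 alleles were compared, effects of Cre itself and of the deletion cannot be told apart.

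NRF2, encoded by Nfe2l2, is a transcription factor that the adaptor KEAP1 holds in the cytoplasm and passes to a ubiquitin ligase for degradation. Oxidants and electrophiles modify KEAP1, NRF2 then accumulates, and together with a small MAF protein it binds antioxidant response elements in the promoters and enhancers of genes for glutathione synthesis, thioredoxin reduction, NADPH supply, haem breakdown and iron storage. Because this switch acts on the protein, NRF2 activity is usually read from its target transcripts and not from Nfe2l2 itself. Glutathione and thioredoxin are the main thiol reductants of the cell, both are kept reduced with NADPH, and T cells draw on both when they proliferate.

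Signals are given below as log2 of the processed intensity minus the 75th percentile of each array, so a value of 0 is a spot as bright as that percentile, and no probe's level is set against that of another. A difference is the USP8ff_CD4Cre mean minus the USP8ff mean on this log2 scale, with its standard error (SE), and adjusted p-values are limma's with Benjamini-Hochberg adjustment over all 12917 genes tested. Where a gene had several probes above background, the brightest stood for it. In the probe of Usp8 itself, on chromosome 2 (mm9, 126584363 to 126584422), the signal was -1.03 and -1.23 in USP8ff_CD4Cre cells, against -0.23 and -0.40 in USP8ff cells. That difference of -0.81 ± 0.13 left 56.9% of the USP8ff signal (limma adjusted p = 0.588), and the sources used here do not say whether the probe lies in the deleted stretch of the gene. All 10 DP thymocyte markers were measured, among them Cd4, Cd8a, Cd8b1, Rag1, Rag2, Dntt and Ptcra. Of these markers 7 had a difference below 0, with a median of -0.11, and 5 were lower on both USP8ff_CD4Cre arrays (50% of the markers, beside 16.3% of all genes). Another 2 were higher on both (20%, beside 24.4% of all genes), Cd8b1 with a difference of 0.09 and Dntt with 0.10. The largest difference of the 10 was that of Rag2, -0.33, from -1.46 and -1.43 in USP8ff_CD4Cre cells, against -1.24 and -0.99 in USP8ff cells. The part of this in the members' values was not tested. The share of probes above background was 45.0% to 48.9% of each array (18535 to 20153 probes), 0 spots were saturated, and the 4 arrays correlated at 0.991 to 0.996. In these bulk samples, a smaller share of cells that express a gene and less RNA per cell cannot be told apart.

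Promoters are shown for 3 of the genes, 1 with a lower signal in USP8ff_CD4Cre cells and 2 with an NRF2-type element. Slc7a11 encodes the light chain of the cystine importer and had the largest difference of the 36 genes. Gclm encodes the modifier subunit of the enzyme that starts glutathione synthesis, and Prdx1 encodes a cytosolic peroxiredoxin. Each sequence is the 250 bases before the annotated start, from RefSeq on GRCm38.p6, read in the direction of transcription. The windows are chr3:50443614-50443863 on the minus strand for Slc7a11, chr3:122245307-122245556 on the plus strand for Gclm, and chr4:116685349-116685598 on the plus strand for Prdx1. Capitals mark TGATGCAA, the core of the amino acid response element bound by ATF4-type factors, in Slc7a11, and TGACNNNGC, the core of the antioxidant response element, in the other promoters, each read on either strand.
Slc7a11: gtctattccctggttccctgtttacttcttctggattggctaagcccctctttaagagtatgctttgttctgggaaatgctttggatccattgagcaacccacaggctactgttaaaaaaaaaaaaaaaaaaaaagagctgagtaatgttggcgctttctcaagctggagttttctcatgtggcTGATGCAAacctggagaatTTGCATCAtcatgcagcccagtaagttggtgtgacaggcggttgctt
Gclm: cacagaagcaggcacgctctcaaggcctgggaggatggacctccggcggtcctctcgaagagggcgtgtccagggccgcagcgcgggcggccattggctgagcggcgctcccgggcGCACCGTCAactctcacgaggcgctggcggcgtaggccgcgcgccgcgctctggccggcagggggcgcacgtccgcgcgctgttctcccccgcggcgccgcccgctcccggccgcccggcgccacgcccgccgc
Prdx1: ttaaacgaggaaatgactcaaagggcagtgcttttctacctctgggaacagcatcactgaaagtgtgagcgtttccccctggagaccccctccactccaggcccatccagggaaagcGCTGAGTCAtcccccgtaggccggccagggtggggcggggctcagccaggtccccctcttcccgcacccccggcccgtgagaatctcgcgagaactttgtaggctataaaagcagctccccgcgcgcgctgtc

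Slc7a11 held TGATGCAA at 66 to 59 bases and, on the opposite strand, at 47 to 40 bases before the start. It was the only member of the 34 with a RefSeq window to hold this motif, which occurred in 260 of 32851 promoter windows of the same length (0.79%). TGACNNNGC was found in 7 of the 34, namely Nfe2l2, Gclm, Prdx1, Txnrd1, Mafg, Sod1 and G6pdx, or in 7 of their 44 windows, since a gene can have several, and in 3338 of all windows (10.16%). In Gclm it lay 134 to 126 bases before the start and in Prdx1 at 133 to 125 bases, both on the opposite strand. No member's window held both motifs. A match describes these letters only, and a window without one gives no information on the factor.

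None of the 36 genes differed between genotypes after adjustment. The background was the same, since limma called 0 of the 12917 genes (0%) at an adjusted p under 0.05, with a smallest adjusted p of 0.289. Before adjustment, 3 members had a p under 0.05, Gclm and Gsr with a higher signal in USP8ff_CD4Cre cells and Slc7a11 with a lower one, where 966 of all genes (7.48%) did so, 517 higher (4%) and 449 lower (3.48%). Of the 36 members, 28 had a difference above 0 and 8 a difference below 0, so 77.8% lay above 0, beside 54.9% of all genes tested. Their median difference was 0.083, beside 0.02 over all genes. Both USP8ff_CD4Cre arrays lay above both USP8ff arrays for 17 members (47.2%; 24.4% of all genes), and both lay below for 3, Slc7a11, Abcc1 and Prdx5 (8.33%; 16.3% of all genes). The groups overlapped for the other 16. Under quantile normalization the count of 17 became 11 (21.5% of all genes), and it was also 11 with the arrays scaled to their medians (19.2% of all genes). The count of 28 above 0 was 24 under quantile normalization, 27 with median scaling and 29 with the normexp background correction. The share above 0 over all genes was not computed for these settings.

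**Figure D1:**
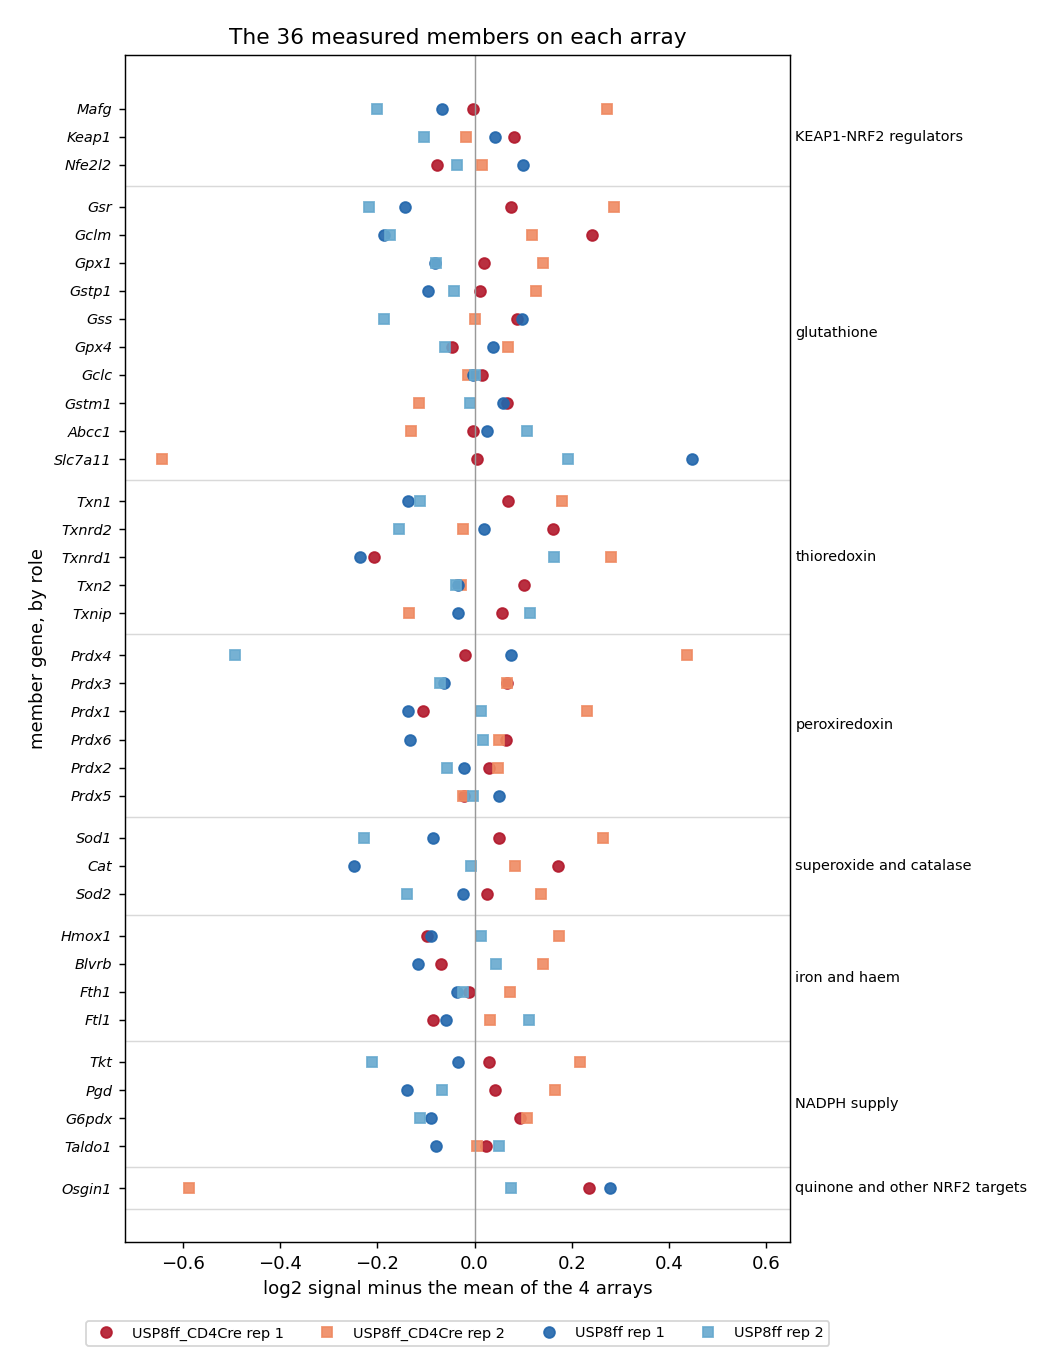
Signal of the 36 measured genes on each array, as log2 signal minus the mean of the 4 arrays (horizontal axis), with genes grouped by role down the page; red and orange points are the USP8ff_CD4Cre pools and blue points the USP8ff pools, and there are no error bars because each point is 1 array. The red and orange points lie right of both blue points for 17 genes, and left of both for Slc7a11, Abcc1 and Prdx5.

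The distribution of the 36 differences lay to the right of that of all genes over its middle part, and not at its ends. Their range ran from -0.64 for Slc7a11 to 0.42 for Prdx4. The SE of a member's difference was 0.10 to 0.28, with a median of 0.11, beside a median absolute difference of 0.12 over all genes.

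**Figure D2:**
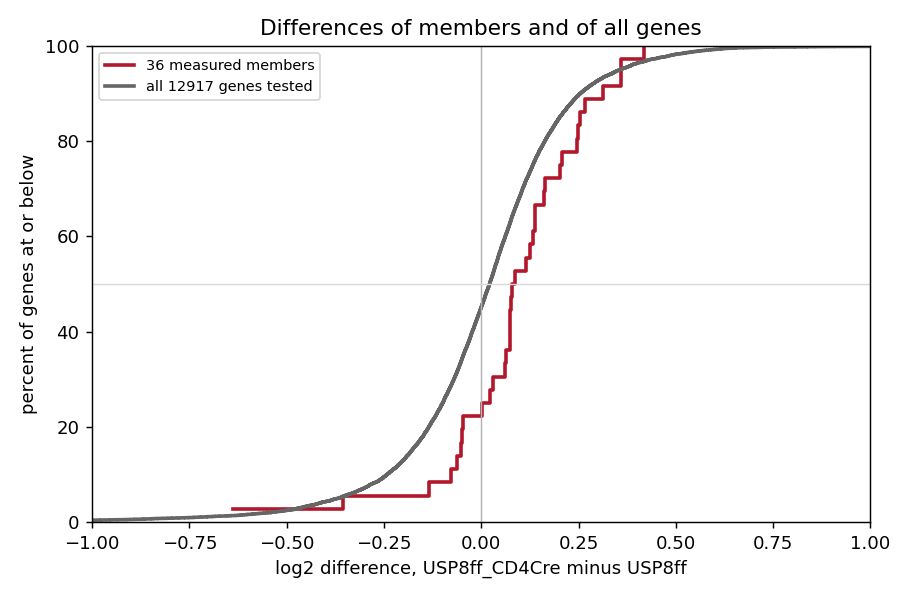
Cumulative share of genes (vertical axis, percent) at or below each log2 difference of USP8ff_CD4Cre minus USP8ff (horizontal axis), for the 36 measured members in red and all 12917 genes tested in grey; genes with a difference beyond 1 in size lie outside the axis. The red curve crosses the line at 50% at 0.083 and the grey curve at 0.02.

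Among the regulators, neither NRF2 nor KEAP1 transcript differed beyond the spread between pools. The Nfe2l2 probe on chromosome 2 (mm9, 75513771 to 75513830) read 3.11 and 3.20 in USP8ff_CD4Cre cells, against 3.28 and 3.15 in USP8ff cells. Its 4 values interleaved, and the difference was -0.06 ± 0.11 (limma adjusted p = 0.906), with a 95% confidence interval of -0.35 to 0.23. A second Nfe2l2 probe above background gave -0.07. The Keap1 probe on chromosome 9 (mm9, 21035292 to 21035732) read 3.34 and 3.24 in USP8ff_CD4Cre cells, against 3.30 and 3.15 in USP8ff cells, which also interleaved. The difference was 0.06 ± 0.12 (limma adjusted p = 0.908; 95% confidence interval -0.23 to 0.36). Mafg encodes a small MAF protein that pairs with NRF2 on DNA. It read -1.45 and -1.18 in USP8ff_CD4Cre cells, against -1.51 and -1.65 in USP8ff cells, so its groups did not overlap, with a difference of 0.27 ± 0.14 (limma adjusted p = 0.693). Mafg averaged -1.31 ± 0.20 in USP8ff_CD4Cre cells and -1.58 ± 0.10 in USP8ff cells (SD, n = 2 each). Without replicate 2 of USP8ff_CD4Cre its difference was 0.13, and without replicate 1 it was 0.41.

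The glutathione genes were the group in which members stood furthest apart, with the lowest difference and 2 of the 3 highest of all 36 genes. Of its 11 genes, 10 were tested, 7 with a difference above 0 (70%, beside 54.9% of all genes) and 3 below, with a median of 0.06. Glutathione is made from cysteine, glutamate and glycine in 2 steps, and cysteine often enters the cell as cystine through the Slc7a11 transporter in exchange for glutamate. Slc7a11 (probe on chromosome 3, mm9, 50169700 to 50169759) read 0.91 and 0.27 in USP8ff_CD4Cre cells, against 1.36 and 1.10 in USP8ff cells. Both USP8ff_CD4Cre pools were below both USP8ff pools, and the 2 USP8ff_CD4Cre pools differed from each other by more than the closest pools of the 2 genotypes did. The mean was 0.59 ± 0.46 in USP8ff_CD4Cre cells and 1.23 ± 0.18 in USP8ff cells (SD, n = 2 each), a difference of -0.64 ± 0.24 or 64.2% of the USP8ff signal (limma adjusted p = 0.666). Without replicate 2 of USP8ff_CD4Cre the difference was -0.31, and without replicate 1 it was -0.96. Slc3a2, the heavy chain that carries Slc7a11 to the membrane and also serves other amino acid transporters, had a difference of 0.05.

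Slc7a11 had 4 probes above background, and all 4 gave a difference below 0, at -0.82, -0.64, -0.48 and -0.31. The probe with -0.82 read -1.06 and -1.84 in USP8ff_CD4Cre cells, against -0.38 and -0.89 in USP8ff cells. The probe with -0.31 read -2.43 and -2.96 in USP8ff_CD4Cre cells, against -2.17 and -2.61 in USP8ff cells, and its groups overlapped. On the other 3 probes the genotypes did not overlap.

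**Figure D3:**
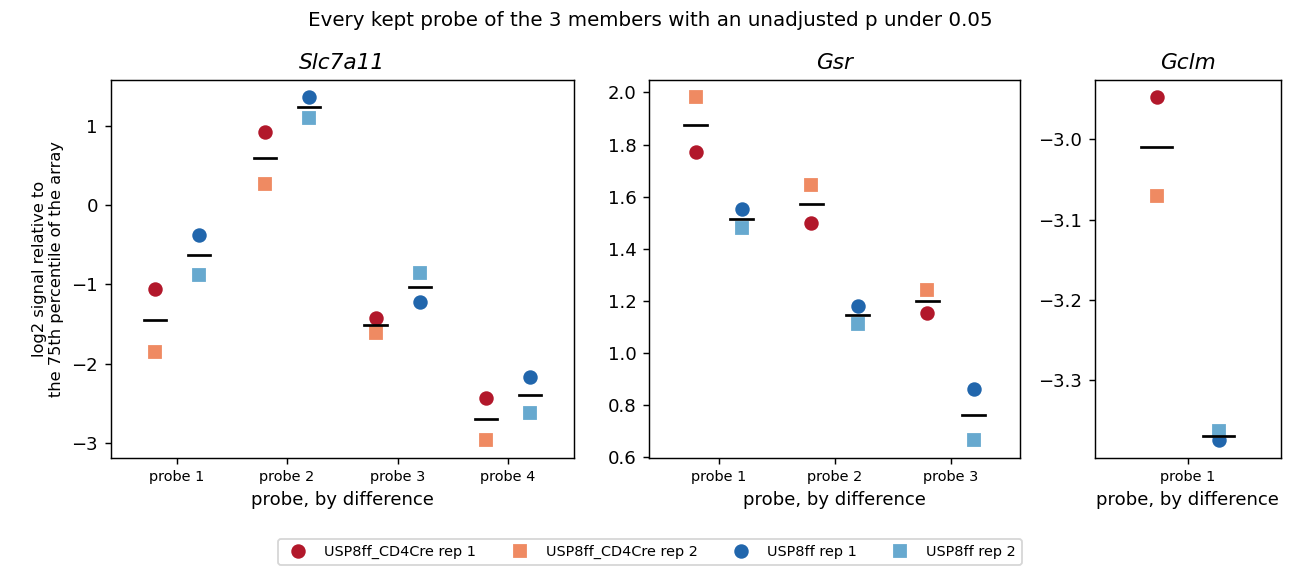
Signal of every probe above background for Slc7a11 (4 probes), Gsr (3) and Gclm (1), as log2 signal relative to the 75th percentile of the array (vertical axes, a scale of its own in each panel); red and orange points are the USP8ff_CD4Cre pools, blue points the USP8ff pools, and black bars the mean of the 2 arrays. For Slc7a11 the USP8ff_CD4Cre mean is below the USP8ff mean on all 4 probes, and for Gsr it is above on all 3.

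Gclc, the catalytic subunit of glutamate-cysteine ligase, which performs the first step, and its partner Gclm gave unlike values. Gclc read 1.62 and 1.59 in USP8ff_CD4Cre cells, against 1.60 and 1.60 in USP8ff cells, a difference of 0.0018 with a 95% confidence interval of -0.26 to 0.26. Gclm (probe on chromosome 3, mm9, 121962174 to 121964809), whose promoter is printed above, read -2.95 and -3.07 in USP8ff_CD4Cre cells, against -3.38 and -3.36 in USP8ff cells. Its groups did not overlap, with means of -3.01 ± 0.09 in USP8ff_CD4Cre cells and -3.37 ± 0.01 in USP8ff cells (SD, n = 2 each). The difference was 0.36 ± 0.11 (limma adjusted p = 0.657), and it was 0.18 with the normexp background correction. The Gclm probe was dim, so its value leans on the background correction. Gss, glutathione synthetase, which performs the second step, had a difference of 0.09 with overlapping groups.

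Gsr, glutathione reductase, returns oxidised glutathione to its reduced form with NADPH. It read 1.77 and 1.98 in USP8ff_CD4Cre cells, against 1.55 and 1.48 in USP8ff cells (probe on chromosome 8, mm9, 34808399 to 34808458). The means were 1.88 ± 0.15 in USP8ff_CD4Cre cells and 1.52 ± 0.05 in USP8ff cells (SD, n = 2 each), and the difference was 0.36 ± 0.12, or 128% of the USP8ff signal (limma adjusted p = 0.657). Its 3 probes gave 0.36, 0.43 and 0.43, and in each the groups did not overlap, although 2 of the 3 probes share bases and are not independent.

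The enzymes that use glutathione differed less. The peroxidase Gpx1 read 4.80 and 4.92 in USP8ff_CD4Cre cells, against 4.70 and 4.70 in USP8ff cells, a difference of 0.16 with groups that did not overlap. Gpx4, the peroxidase that reduces lipid hydroperoxides in membranes, had a difference of 0.02 with overlapping groups. The transferases Gstp1 and Gstm1 had differences of 0.14 and -0.05, and both have close paralogs whose transcripts may bind the same probes. Abcc1, an exporter of glutathione and its conjugates, had a difference of -0.13 on the probe that stood for it, and of -0.19 and 0.20 on its other probes, so its direction depended on the probe. Gsta4, a transferase for lipid aldehydes, was above background only on replicate 2 of each genotype and was not tested.

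Of the 6 thioredoxin genes, 5 were tested and 4 had a difference above 0 (80%, beside 54.9% of all genes), with a median of 0.07. Txn1, the cytosolic thioredoxin, read 5.61 and 5.72 in USP8ff_CD4Cre cells, against 5.40 and 5.43 in USP8ff cells (probe on chromosome 4, mm9, 57956677 to 57956736). Both USP8ff_CD4Cre pools were above both USP8ff pools, with a difference of 0.25 ± 0.11 or 119% of the USP8ff signal (limma adjusted p = 0.674), and the difference was 0.14 under quantile normalization. Its reductase Txnrd1, a known NRF2 target, split by replicate number and not by genotype. Txnrd1 read 3.70 and 4.19 in USP8ff_CD4Cre cells, against 3.67 and 4.07 in USP8ff cells, a difference of 0.07 with a 95% confidence interval of -0.49 to 0.64. The mitochondrial pair Txn2 and Txnrd2 had differences of 0.07 and 0.14, but the other Txnrd2 probes gave 0.09 and -0.08, and the mean of its probes gave 0.047. Txnip, which binds thioredoxin and limits glucose uptake, had a difference of -0.08 with overlapping groups, and of -0.26 on a dimmer probe on which the USP8ff_CD4Cre values of -0.42 and -0.41 were below the USP8ff values of -0.24 and -0.08. Srxn1, the sulfiredoxin that restores overoxidised peroxiredoxins and a classical NRF2 target, had no probe above background on any array.

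Peroxiredoxins reduce hydrogen peroxide with electrons from thioredoxin. All 6 were tested, 5 with a difference above 0 (83.3%, beside 54.9% of all genes) and 1 below, with a median of 0.12. Prdx4, the family member of the endoplasmic reticulum, had the largest value and the widest spread. It read 1.91 and 2.37 in USP8ff_CD4Cre cells, against 2.01 and 1.44 in USP8ff cells, so the groups overlapped, with a difference of 0.42 ± 0.25 (limma adjusted p = 0.711). Without replicate 2 of USP8ff it was 0.13, and without replicate 1 of USP8ff it was 0.70. Prdx3, the mitochondrial member, was the tightest, at 1.94 and 1.93 in USP8ff_CD4Cre cells, against 1.81 and 1.80 in USP8ff cells, a difference of 0.13. Prdx1 overlapped between genotypes, with 3.78 and 4.12 in USP8ff_CD4Cre cells, against 3.75 and 3.90 in USP8ff cells. Prdx2, a cytosolic member, had a difference of 0.079 on a probe printed 10 times on each array, and of 0.02 and -0.02 on its other probes. Prdx5 had a difference of -0.05. Prdx6 had 0.12 on the probe that stood for it, and 0.01 and -0.45 on others, so for Prdx2 and Prdx6, as for Abcc1 and Txnrd2, the direction depended on the probe.

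The superoxide and catalase genes were the only role group of 3 or more genes in which every member was higher on both USP8ff_CD4Cre arrays. That is 100% of 3 genes, beside 24.4% of all genes. Sod1, the cytosolic copper and zinc superoxide dismutase, read 6.45 and 6.66 in USP8ff_CD4Cre cells, against 6.31 and 6.17 in USP8ff cells (probe on chromosome 16, mm9, 90226497 to 90226556). The difference was 0.31 ± 0.13 or 124% of the USP8ff signal (limma adjusted p = 0.666). A second, dimmer Sod1 probe read -1.91 and -1.97 in USP8ff_CD4Cre cells, against -2.15 and -1.79 in USP8ff cells, with overlapping groups and a difference of 0.03. The Sod1 difference was 0.17 with the mean of its probes, and 0.21 without replicate 2 of USP8ff_CD4Cre. Cat, the peroxisomal catalase, read 2.59 and 2.50 in USP8ff_CD4Cre cells, against 2.17 and 2.41 in USP8ff cells, a difference of 0.25 that was 0.13 without replicate 1 of USP8ff. Sod2, the mitochondrial manganese enzyme, had a difference of 0.16.

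The iron and haem genes showed the smallest differences, from -0.05 to 0.08 with a median of 0.07. Hmox1, haem oxygenase 1, frees iron from haem and is a widely used sign of NRF2 activity. It read -1.59 and -1.32 in USP8ff_CD4Cre cells, against -1.59 and -1.48 in USP8ff cells, and the groups overlapped. The difference was 0.08 ± 0.14 (limma adjusted p = 0.905; 95% confidence interval -0.27 to 0.42), and without replicate 2 of USP8ff_CD4Cre it was -0.059. Blvrb, a biliverdin reductase, had 0.07. The ferritin chains Fth1 and Ftl1, which store the freed iron, had 0.06 and -0.05, and both have many processed pseudogenes.

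All 4 tested NADPH supply genes had a difference above 0 (100%, beside 54.9% of all genes), with a median of 0.20. Of the 4, 3 were higher on both USP8ff_CD4Cre arrays (75%, beside 24.4% of all genes). G6pdx and Pgd make NADPH in the oxidative branch of the pentose phosphate pathway, and Tkt and Taldo1 run its non-oxidative branch. G6pdx read 2.29 and 2.31 in USP8ff_CD4Cre cells, against 2.11 and 2.09 in USP8ff cells, a difference of 0.20. Pgd had a difference of 0.21, with 2.44 and 2.56 in USP8ff_CD4Cre cells, against 2.26 and 2.33 in USP8ff cells. Neither overlapped between genotypes. With all 4 arrays Tkt had the largest difference of the group, 0.25 ± 0.13 (limma adjusted p = 0.694), from 5.34 and 5.53 in USP8ff_CD4Cre cells, against 5.28 and 5.10 in USP8ff cells. It was 0.15 without replicate 2 of USP8ff_CD4Cre, where G6pdx had 0.19, and 0.16 without replicate 2 of USP8ff. Taldo1 had a difference of 0.03 with overlapping groups. Me1, the cytosolic malic enzyme, had no probe above background.

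Nqo1, the quinone reductase that serves as a standard NRF2 target, had no probe above background on any of the 4 arrays. Nqo1, Me1 and Srxn1 have only an upper bound in both genotypes, and no fold was computed. Osgin1, an oxidative stress-induced growth inhibitor, read -3.44 and -4.26 in USP8ff_CD4Cre cells, against -3.39 and -3.60 in USP8ff cells. The groups overlapped, and the difference of -0.35 ± 0.28 (limma adjusted p = 0.775) became 0.02 with the normexp correction and 0.06 without replicate 2 of USP8ff_CD4Cre.

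Set side by side per array, the role groups did not share 1 pattern. Each gene was centred on its mean over the 4 arrays and the centred values were averaged over the group. The superoxide and catalase genes stood at 0.08 and 0.16 on the USP8ff_CD4Cre arrays, against -0.12 and -0.12 on the USP8ff arrays. The NADPH genes were at 0.05 and 0.12 in USP8ff_CD4Cre cells, against -0.09 and -0.09 in USP8ff cells. For both groups the genotypes did not overlap. The peroxiredoxins were at 0.0026 and 0.13 in USP8ff_CD4Cre cells, against -0.04 and -0.10 in USP8ff cells, and the thioredoxin genes at 0.04 and 0.05 in USP8ff_CD4Cre cells, against -0.08 and -0.01 in USP8ff cells, also without overlap. The glutathione genes were at 0.05 and -0.02 in USP8ff_CD4Cre cells, against 0.02 and -0.05 in USP8ff cells, which overlapped. The iron and haem genes followed the replicate number, at -0.07 and 0.10 in USP8ff_CD4Cre cells, against -0.08 and 0.04 in USP8ff cells. The regulators overlapped as well. These means were not tested.

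**Figure D4:**
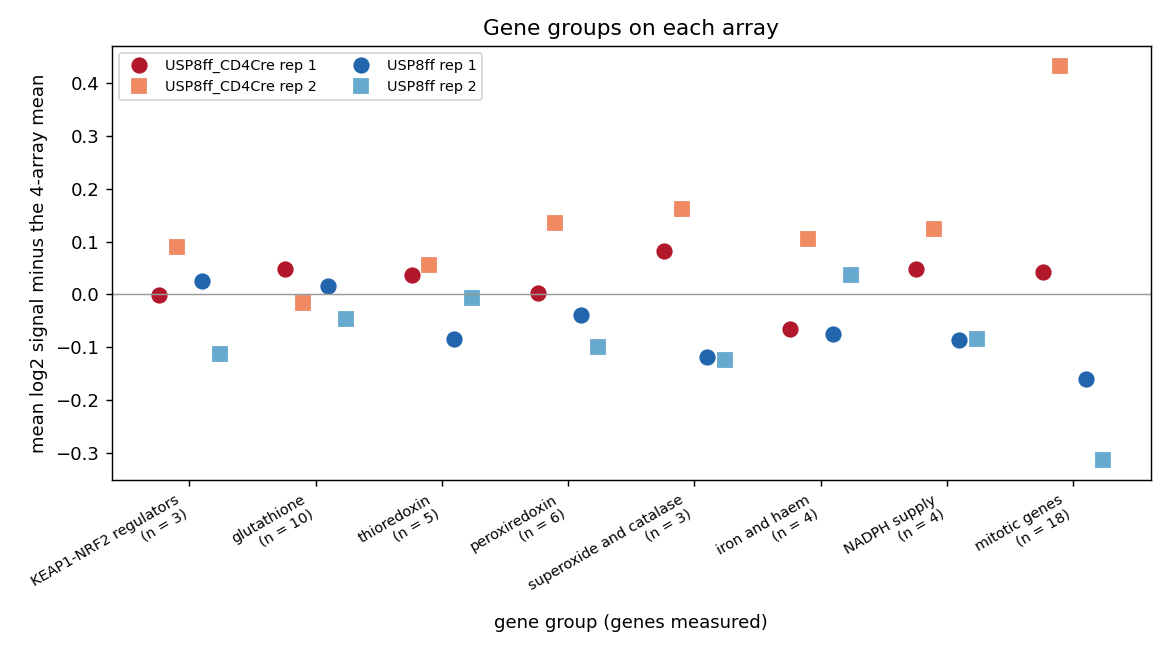
Mean over the genes of each role group of log2 signal minus the 4-array mean (vertical axis), 1 point per array, with the number of genes measured under each group name. At the right for comparison are 18 genes of dividing cells, labelled mitotic genes, some of which serve DNA replication. Red and orange points are USP8ff_CD4Cre pools and blue points USP8ff pools. The genotypes separate for the thioredoxin, peroxiredoxin, superoxide and catalase, and NADPH genes. The 18 genes of dividing cells lie furthest apart, with USP8ff_CD4Cre replicate 2 at 0.43.

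Genes of dividing cells had higher signals on the same arrays. A list of 18, named mitotic, also holds Tyms, Rrm2, Mcm2, Mcm5 and Pcna, genes of DNA replication and nucleotide supply. Of the 18, 17 were higher on both USP8ff_CD4Cre arrays (94.4%, beside 24.4% of all genes). All 18 had a difference above 0 (100%, beside 54.9% of all genes), with a median of 0.50. Their centred means were 0.04 and 0.43 in USP8ff_CD4Cre cells, against -0.16 and -0.31 in USP8ff cells, and the 36 members together ran in the same array order, with 0.03 and 0.06 in USP8ff_CD4Cre cells, against -0.03 and -0.05 in USP8ff cells. Their part in the members' values was not tested. Macrophages are rich in haem oxygenase and ferritin. Of 18 markers of macrophages and dendritic cells, 6 were measured and Emr1, Csf1r, Itgam and C1qa were among the 12 below background. Of the 6, 1 had a difference above 0 (16.7%, beside 54.9% of all genes), and their median was -0.09. Mpeg1 was lower on both USP8ff_CD4Cre arrays, at -3.39 and -3.16, against -2.50 and -1.87 in USP8ff cells, and C1qb was higher on both. The summed linear signal of the 6, relative to the 75th percentile, was 1.30 and 1.74 in USP8ff_CD4Cre cells, against 1.76 and 1.74 in USP8ff cells. Lyz2, the brightest of the 6, weighs most in this sum. Of 10 erythroid markers on the array, 3 were measured, with a sum of 0.333 and 0.632 in USP8ff_CD4Cre cells, against 0.321 and 0.368 in USP8ff cells. The groups overlapped for all 3, with 2 differences above 0 (66.7%, beside 54.9% of all genes) and that of Car1 at -0.30. Hba-a2 read -3.21 and -1.58 in USP8ff_CD4Cre cells, against -3.24 and -3.18 in USP8ff cells, so 1 array weighs most in this sum. Of 14 markers of mature T, NK and innate cells, 9 were measured, Foxp3, Ncr1 and Klrb1c being below background. On both USP8ff_CD4Cre arrays, 7 were lower (77.8%, beside 16.3% of all genes) and 2 higher (22.2%, beside 24.4%). The median difference of the 9 was -1.24. Their sum was 12.6 and 14.1 in USP8ff_CD4Cre cells, against 14.0 and 14.7 in USP8ff cells. Markers above background in only 1 genotype were kept in these lists, so part of these shares and of this median can follow from the filter. The part of these cell types in the members' values was not tested.

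Wider lists of each pathway gave the following, with 0 genes called in any of them. Over all genes tested, 54.9% had a difference above 0. Of 25 further NRF2 partners and targets, 20 were tested, 9 above and 11 below 0, with a median of -0.01. The quinone reductase Nqo2 was at 0.68 and 0.77 in USP8ff_CD4Cre cells, against 0.46 and 0.40 in USP8ff cells, a difference of 0.30. Bach2, a repressor that binds the same elements as NRF2 and is important in lymphocytes, was at -0.75 and -1.12 in USP8ff_CD4Cre cells, against -0.48 and -0.56 in USP8ff cells, a difference of -0.42. Each of the 2 did not overlap between genotypes, and they were named for having the smallest p of the list. Of the 20, 5 were higher on both USP8ff_CD4Cre arrays (25%, beside 24.4% of all genes) and 3 lower (15%, beside 16.3%).

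Of 28 further glutathione genes, 18 were tested, 10 above and 8 below 0, with a median of 0.06, the mitochondrial glutaredoxin Glrx5 having 0.16 and the cytosolic glutaredoxin Glrx -0.30 with overlapping groups. Among 18 tested genes of 19 for further thioredoxin-fold proteins and repair, 14 were above 0, with a median of 0.13. There Ero1l, an oxidase of the endoplasmic reticulum, read 0.08 and 0.14 in USP8ff_CD4Cre cells, against -0.17 and -0.41 in USP8ff cells, and Nxn, nucleoredoxin, had a difference of 0.35. Of 13 further NADPH and folate genes, 12 had a difference above 0, with a median of 0.21. Pgls, the lactonase that follows G6pdx, had 0.40, and Idh2, a mitochondrial NADPH source, was the exception at -0.30. Of 16 further iron genes 14 were tested, 10 above 0, with a median of 0.07. Alad, an enzyme of haem synthesis, read 1.08 and 1.20 in USP8ff_CD4Cre cells, against 0.92 and 0.76 in USP8ff cells, a difference of 0.30.

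The authors' deposited table of fold changes lists 78 probes, 2 of them array controls, and 0 of the 78 carry the name of a member. The smallest absolute fold in that table is 2.0015. The largest member difference here, that of Slc7a11, was -0.64 on the log2 scale, a smaller change than that fold. The absence of members from that table therefore gives no information on differences of this size.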

How the data were processed

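RNA of 4 pools of sorted DP thymocytes, 2 per genotype, was measured on 1-colour Agilent arrays of 1 slide, with Feature Extraction 10.7.3.1 as the scanner software, per the file headers. The labels give 500 ng as the amount of RNA that went into the Cy3-labelled cRNA. The deposited scanner files hold spot intensities whose processed signal was background-subtracted by that software, per the file headers, with no scaling between arrays. Probe positions are those of the array design on mm9. The authors' deposited table gives a fold and a p-value for each of its probes, and the sources used here do not name its test. In a second deposited table, 4 columns hold values of single samples under names that fit none of the labels, and these were left out.

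Here log2 of the processed intensity minus the 75th percentile of 43379 non-control spots per array was computed, with outlier spots left out (17 of 41174 probes lost). Probes were kept (19038) where the software marked them as above background throughout 1 or both genotypes, the brightest standing for its gene (12917 genes). R 4.3.3 and limma 3.58.1 (lmFit, eBayes) compared USP8ff_CD4Cre with USP8ff, with Benjamini-Hochberg adjustment at 0.05, and the script was tested on simulated data. The number of arrays limits the precision. Of 70 member probes, 60 have an accession in the RefSeq table, and all 60 carry the same symbol there. The members, the lists and the tests were chosen with earlier results of these data known. Full statistics are given for members with an unadjusted p under 0.05, for Nfe2l2, Keap1 and Usp8, and for the member with the largest difference in each role group. From each further list the 2 genes with the smallest p are named, apart from 1 gene that is not reported here, with Slc3a2 and marker genes added after their values were seen. Alternatives changed the scaling, background correction, filter, probe rule, model, outlier spots and arrays. The labels do not state that replicate numbers pair pools.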

Additional observations from a re-analysis of the deposited data

How the results depend on the processing

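No alternative called any gene after adjustment, but 6 of the 14 alternatives leave a gene's difference as it is and bear only on tests and counts. Over the 8 that can move it, and over all their own probes above background, 18 of the 36 members kept their sign, 16 positive and 2 negative (Slc7a11 and Prdx5). The number of members above on both USP8ff_CD4Cre arrays was 11 under quantile normalization and 11 under median scaling, in place of 17. Quantile normalization gave medians of 0.018 for the glutathione, 0.017 for the thioredoxin and 0.066 for the peroxiredoxin genes. The normexp correction turned Osgin1 to 0.020. Without a filter on dim probes 0 members had a p under 0.05 by limma, and the median of all genes was -0.12. With the mean of a gene's probes, the peroxiredoxin median was 0.076 and the superoxide and catalase median 0.17. With every probe tested on its own, 7 of 56 member probes had a p under 0.05 by limma (6.67% of all probes). These were probes of Slc7a11, Gsr and Gclm, the same 3 genes as in the main fit. Of the 56 probes, 22 were above on both USP8ff_CD4Cre arrays (22.1% of all probes) and 6 below (16.6%), and the peroxiredoxin median was 0.050.

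With replicate number as a block, members and medians kept their values, 3 members had an unadjusted p under 0.05, and limma gave 1341 genes such a p and called 0, with a smallest adjusted p of 0.085. Deviations of same-numbered arrays correlated at 0.32, but with 2 pairs the numbers were not taken as pairs.

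Leaving out 1 array leaves a group with 1 array, assumed to vary like the other. The genes with a p under 0.05 then numbered 396 (without USP8ff_CD4Cre replicate 2) to 1215, and the members 1 to 3. Members not overlapping numbered 21 to 23 higher, beside 35.9% to 44.1% of all genes, and 6 to 7 lower, beside 25.3% to 34.6%, since 1 array overlaps less easily. The median of the members was 0.085 to 0.12, of the NADPH genes 0.15 to 0.24, of the glutathione genes -0.011 to 0.092, of the iron and haem genes -0.045 to 0.14, of the peroxiredoxins 0.072 to 0.13 and of the thioredoxin genes 0.044 to 0.14. In these fits 14 of the 36 members changed sign in at least 1, and 29, these included, moved by over 1.5 times. The sign changed for Blvrb, Ftl1, Gclc, Gpx4, Gss, Gstm1, Prdx1, Taldo1, Txnip and Txnrd1, and for 4 named regulators and targets, whose differences ran from -0.059 to 0.21 for Hmox1, -0.0092 to 0.14 for Keap1, -0.13 to 0.0039 for Nfe2l2 and -0.77 to 0.057 for Osgin1. The cause of these shifts was not tested. Probe brightness sets a limit for the dim Gclm and Osgin1 probes.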

Other observations

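Atf4 and genes that ATF4 activates under amino acid shortage were listed after the values had been seen, since Slc7a11, which is not on the list, is itself a known target. Of these 12 genes, Atf4 included, 10 were measured and 9 had a difference above 0 (90%, beside 54.9% of all genes). The median was 0.21, beside 0.02 over all genes. Mthfd2, a mitochondrial folate enzyme, read 0.11 and 0.50 in USP8ff_CD4Cre cells, against -0.31 and -0.33 in USP8ff cells. Psat1 and Phgdh, enzymes of serine synthesis, had differences of 0.54 and 0.36, and the transcription factor Atf5 had 0.32. Slc7a5, another amino acid transporter, had 0.35, while Sesn2 had 0.11, Trib3 0.07, Slc3a2 0.05, Atf4 itself 0.02 and Ddit3 -0.11. The Slc7a11 difference was -0.64. None of these passed limma's adjusted test, and the list was given no test of its own.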
